A study of Mus musculus with 15 samples.

Results

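Junction genes of lung epithelium and endothelium, 10 in number, were followed across house dust mite (HDM)-inflamed lungs with and without mesenchymal stem cells (MSCs): the claudins Cldn1, Cldn3, Cldn4, Cldn5, Cldn7 and Cldn18, with Ocln, Tjp1, F11r and Cdh1. They were chosen by name, with earlier results of these data known, and all 10 were found among the 55421 genes of the deposited count table. All 10 also passed the filter on low counts, with which 19562 genes were tested. Total RNA of lung was sequenced from 15 mice, 5 in each of 3 groups. The MSC day 13 mice had HDM extract and, on day 13, MSCs from adipose tissue through the nose, which the labels name short-term effects. The MSC day 6 mice had the same extract and cells, with the cells given on day 6, named long-term effects. The HDM mice had the extract alone. Every mouse was a female wild-type C57BL/6 and was dosed intranasally with 10 µg of extract per day, for 5 days a week over 2 weeks, and all lungs were taken on day 15. The labels used here give neither the age of the mice nor the species, donor or passage of the MSCs. Saline-treated mice named in the design were not analysed here, so no value is relative to healthy lung.

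Epithelial and endothelial sheets are sealed at the cell border by tight junctions and held together by adherens junctions just below them. Claudins form the paracellular seal and set which ions and solutes pass, occludin and the junctional adhesion molecules are further membrane proteins of the tight junction, and ZO-1 ties them to actin inside the cell. E-cadherin is the adhesion molecule of epithelial adherens junctions, and VE-cadherin is that of endothelial ones. In the alveolus claudin-18, claudin-3 and claudin-4 are the main epithelial claudins, while claudin-5 is the main claudin of blood vessel endothelium. House dust mite proteases are known to open airway epithelial junctions by cutting their proteins, which RNA levels do not show.

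Total counts ranged from 17182599 to 32119067 in MSC day 13 libraries, from 31762964 to 41762167 in MSC day 6 libraries and from 29635897 to 44201637 in HDM libraries. Lung markers were present in every group: the surfactant gene Sftpc averaged 5868 ± 1308 CPM in MSC day 13 lungs, 7422 ± 1014 CPM in MSC day 6 lungs and 7647 ± 1710 CPM in HDM lungs (SD, n = 5 each; CPM are counts scaled by library size). MSC day 13 replicate 3 stood apart. It had the lowest total, with counts for 43174 genes, and its 8 thymocyte markers summed to 4535 CPM, against 53.3 to 83.1 CPM in the other 4 MSC day 13 libraries. Its 7 markers of alveolar type 1 (AT1) cells summed to 1442 CPM, against 2721 to 3061 CPM, and its 9 endothelial markers to 1952 CPM, against 3370 to 3601 CPM. HDM replicates 1 and 2 stood apart from the other 3 HDM libraries on the first principal component, at -15.9 and -21.3 against 17.4 to 27.6. MSC day 13 replicate 3 was at -111 on it. On the second component the 2 HDM libraries were at 40.9 and 54.5, against -2.52 to 22. Many results are also given without MSC day 13 replicate 3, and some without HDM replicates 1 and 2.

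In MSC day 13 lungs, claudin-18 RNA was lower than in HDM lungs, and it was the 1 junction gene past the test: Cldn18 fell by 0.56 on the log2 scale, to 0.676 of the HDM level. Of the other 9 genes, Cldn4, Cdh1 and Tjp1 had the next smallest p-values, with log2 fold changes of -0.65, -0.42 and -0.33, and none of the 3 passed. In MSC day 6 lungs none of the 10 passed. Between MSC day 13 and MSC day 6 lungs none passed either. The test was edgeR's quasi-likelihood test on all 15 libraries, with p-values adjusted over all genes tested by the Benjamini-Hochberg method and called under 0.05.

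Over all genes tested, 937 were called in MSC day 13 lungs against HDM lungs (4.79%), 371 of them higher and 566 lower (2.89%). With upper-quartile scaling the split was 481 higher and 298 lower. In MSC day 6 lungs 19 genes were called (0.0971%), and between both MSC groups 0 (0%). With 10 genes followed, 1 call beside a background of 4.79% is a result about Cldn18 and not about the 10 as a group. When MSC day 13 replicate 3 was left out, the background against HDM was 6.58% for MSC day 13 (3.36% lower) and 2.2% for MSC day 6 (1.72% lower). The junction genes called, all lower, were then 2 (Cldn18 and Cdh1) and 1 (Cldn18). The MSC day 13 and MSC day 6 comparisons share the same 5 HDM libraries, so a shift of those libraries appears in both.

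Cldn18 encodes claudin-18, a claudin of the lung alveolar epithelium and of the stomach whose loss in mice leaves alveoli leaky. It lies on the minus strand of chromosome 9 from 99689461 to 99717267 (GRCm38). MSC day 13 lungs had 567, 585, 496, 637 and 565 CPM, MSC day 6 lungs 566, 632, 733, 666 and 529 CPM, and HDM lungs 966, 957, 797, 830 and 661 CPM. All 5 MSC day 13 lungs lay below the lowest HDM lung, whereas MSC day 6 lungs overlapped HDM lungs through replicates 3 and 4. Groups that do not overlap with MSC day 13 below were found for 3.73% of all genes tested. The log2 fold change was -0.56 (SE 0.12, edgeR adjusted p = 0.0194) for MSC day 13 and -0.43 (SE 0.12, edgeR adjusted p = 0.129) for MSC day 6 against HDM.

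The Cldn18 difference leaned on the HDM libraries with the highest values. Replicates 1 and 2 of the HDM group had 966 and 957 CPM, above the 661 to 830 CPM of the other 3. Without both, the log2 fold change for MSC day 13 was -0.41 and the edgeR adjusted p 0.0821, which ends the call. Without MSC day 13 replicate 3 as well it was -0.38 with an edgeR adjusted p of 0.0381. Over all genes these fits called 183 and 2279. Cldn18 fell by 0.50 in MSC day 13 lungs (edgeR adjusted p = 0.0203) and by 0.42 in MSC day 6 lungs (edgeR adjusted p = 0.0495) when MSC day 13 replicate 3 alone was left out. Over the 15 fits that each left out 1 library, the MSC day 13 value ranged from -0.62 to -0.50, and the call was lost in 2, without HDM replicate 2 and without MSC day 13 replicate 5. A fit of the MSC day 13 and HDM libraries alone gave -0.55 and called 0 genes in all. With all 15 libraries, DESeq2 and limma voom called Cldn18 in MSC day 13 lungs (adjusted p = 2.6e-04 and 0.0127). They also called it in MSC day 6 lungs, at -0.44 and -0.39 (adjusted p = 0.0156 and 0.0489). Both called many more genes than edgeR: 2136 and 2413 against 937 for MSC day 13, and 663 and 494 against 19 for MSC day 6.

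Lung and stomach transcripts of Cldn18 start at different first exons, and the factor NKX2-1 is known to drive the lung transcript in mice. The counts are per gene and do not separate them. Both starts in RefSeq (GRCm38.p6, minus strand, 250 bases before to 50 bases after each start) are printed because Cldn18 is the called gene. Capitals mark CAAGTG, the core letters bound by NKX2 factors, searched on both strands; 13.6% of 32851 promoters of this length hold it.
Cldn18 start at chr9:99717218-99717517: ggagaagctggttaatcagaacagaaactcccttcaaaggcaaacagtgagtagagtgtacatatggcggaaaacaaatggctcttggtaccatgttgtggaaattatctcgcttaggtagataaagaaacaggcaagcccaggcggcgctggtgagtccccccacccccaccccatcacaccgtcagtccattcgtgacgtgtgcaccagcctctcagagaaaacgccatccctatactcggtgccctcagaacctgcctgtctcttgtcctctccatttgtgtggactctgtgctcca
Cldn18 start at chr9:99710014-99710313: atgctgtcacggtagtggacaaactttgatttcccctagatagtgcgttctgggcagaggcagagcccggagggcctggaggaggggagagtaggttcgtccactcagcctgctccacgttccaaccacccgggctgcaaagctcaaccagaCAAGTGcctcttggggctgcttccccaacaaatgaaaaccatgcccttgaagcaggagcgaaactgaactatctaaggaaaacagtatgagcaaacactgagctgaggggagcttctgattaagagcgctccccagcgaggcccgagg
The motif was found once, in the window of the start nearer the end of the gene, and not in the upstream window. Neither window was assigned here to the lung or the stomach transcript, so the match is not read as a site of the lung transcript. A match shows letters only. Nkx2-1 itself, named here after its values were seen, had a log2 fold change of -0.33 in MSC day 13 lungs and -0.22 in MSC day 6 lungs against HDM (edgeR adjusted p = 0.205 and 0.548).

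Cldn4 encodes claudin-4, a sealing claudin of alveolar and airway epithelium that is known to rise when the alveolar epithelium is injured. It lies on the minus strand of chromosome 5 from 134945119 to 134946934 and was the least expressed of the 10, with 54 to 209 reads per library. MSC day 13 lungs had 3.16, 3.71, 3.41, 2.34 and 2.23 CPM, MSC day 6 lungs 4.23, 3.56, 2.61, 4.31 and 3.01 CPM, and HDM lungs 3.46, 4.07, 3.53, 5.62 and 6.5 CPM. The groups overlapped, and HDM replicates 4 and 5 were the highest of all 15 libraries. The log2 fold change was -0.65 (SE 0.22, edgeR adjusted p = 0.0873) for MSC day 13 and -0.39 (SE 0.21, edgeR adjusted p = 0.437) for MSC day 6. This was the lowest log2 fold change of the 10 for MSC day 13. DESeq2 and limma voom called Cldn4 in MSC day 13 lungs, as did edgeR without both HDM replicates 1 and 2 and MSC day 13 replicate 3 (-0.87, adjusted p = 0.0321). These fits called more genes in all: 2136 and 2413 of 19562, and 2279 of 19796, against 937 of 19562 with edgeR on all 15 libraries.

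**Figure D1:**
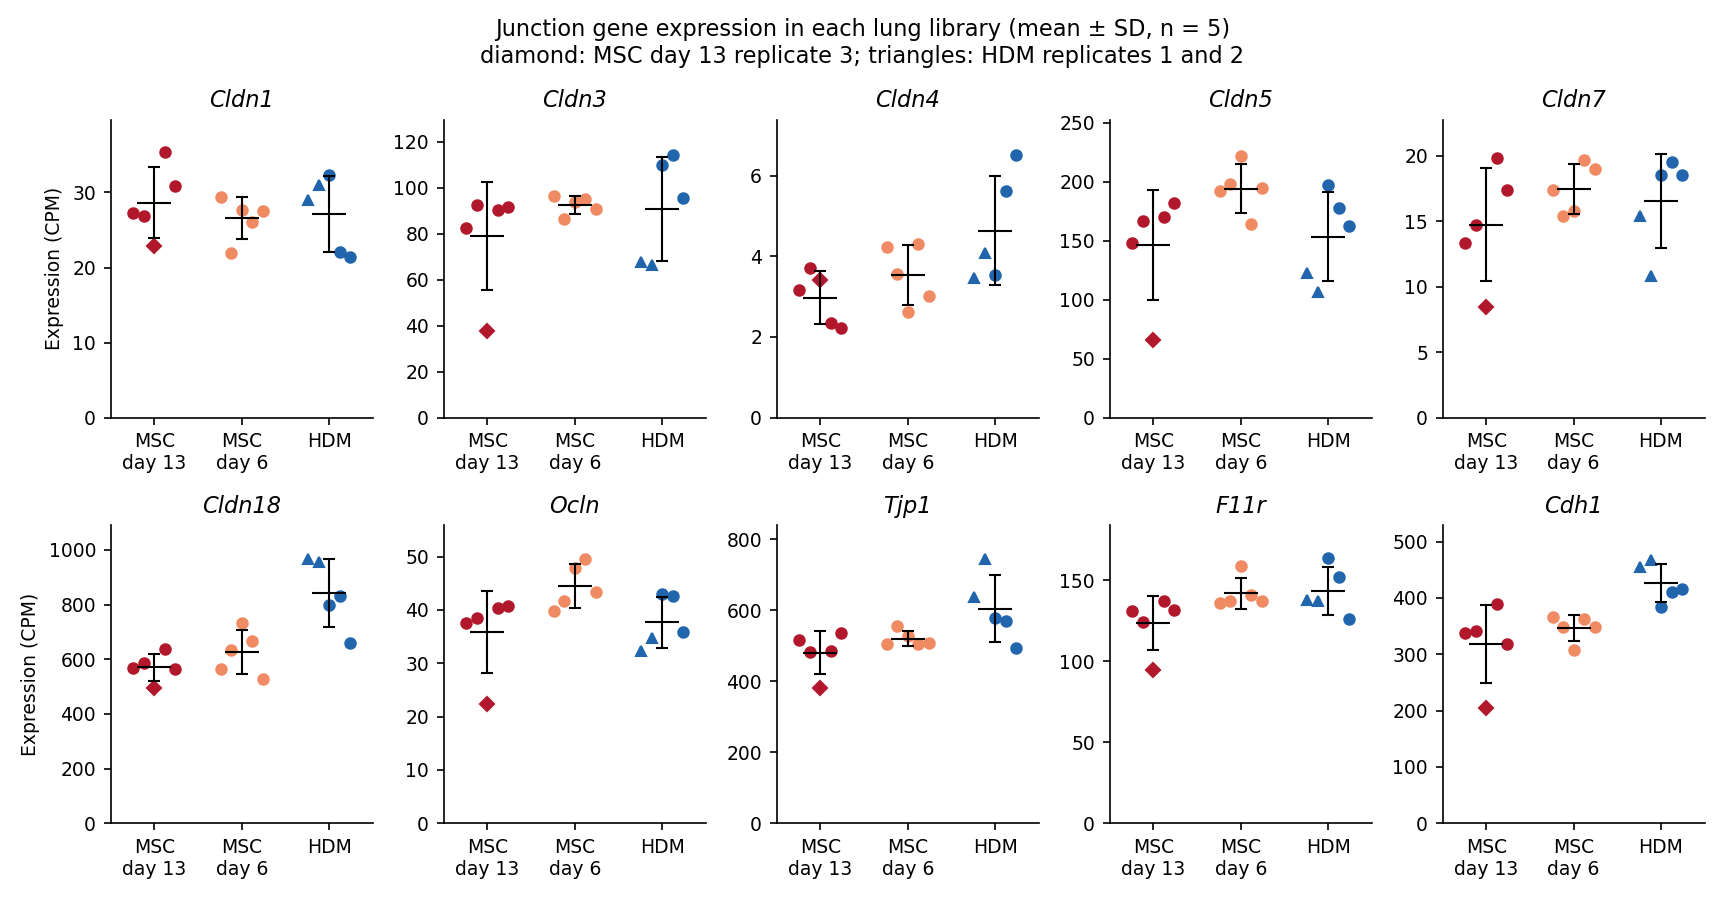
Expression in CPM (linear axis from 0) of each of the 10 junction genes in the 5 MSC day 13, 5 MSC day 6 and 5 HDM lungs; points are libraries and bars the mean ± SD. For Cldn18 every MSC day 13 lung (496 to 637 CPM) lies below every HDM lung (661 to 966 CPM), and the diamond, MSC day 13 replicate 3, lies below the rest of its group for 9 of the 10 genes.

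Cldn3 lies 39 kb from Cldn4, on the plus strand of chromosome 5 from 134986214 to 134987472, and encodes claudin-3, a claudin of alveolar type 2 (AT2) and airway cells. The Cldn4 and Cldn3 windows both hold CAGGTG, the E-box to which repressors of epithelial genes such as SNAI1 and ZEB1 bind, and the Cldn4 window (GRCm38.p6, minus strand) is printed because it holds that motif on both sides of the start. Capitals mark CAGGTG, which was searched on both strands and reads CACCTG on the other one.
Cldn4 start at chr5:134946885-134947184: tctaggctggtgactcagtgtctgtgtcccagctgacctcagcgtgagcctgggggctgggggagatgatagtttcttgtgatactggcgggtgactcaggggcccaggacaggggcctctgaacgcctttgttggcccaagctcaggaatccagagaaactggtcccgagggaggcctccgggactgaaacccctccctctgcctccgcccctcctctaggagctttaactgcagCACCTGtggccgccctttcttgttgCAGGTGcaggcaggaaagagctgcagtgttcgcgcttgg
The E-box was found in 6 of the 12 RefSeq windows of the junction genes, those of F11r, Cldn4, Cldn3, Ocln (both starts) and 1 of the Cldn7 starts, and in 20.2% of all 32851 promoters. The Ocln windows overlap and share a site, so they are not separate finds. RefSeq windows were at hand for 9 of the 10 genes. AACCNGTT, bound by grainyhead-like factors, was in 2.09% of all promoters and in 1 of the 12, that of Cldn5.

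Cldn3 had 82.3, 92.6, 37.7, 90.1 and 91.8 CPM in MSC day 13 lungs, 96.5, 86.6, 93.7, 95.2 and 90.9 CPM in MSC day 6 lungs, and 67.7, 66.2, 110, 114 and 95.7 CPM in HDM lungs. Apart from MSC day 13 replicate 3, the MSC lungs lay above the low pair of HDM lungs, replicates 1 and 2, and below the other 3, except that MSC day 6 replicate 1 was just above HDM replicate 5. The log2 fold change was -0.20 for MSC day 13 and 0.028 for MSC day 6 against HDM (edgeR adjusted p = 0.595 and 0.971). It depended on those libraries. For MSC day 13 it was -0.008 without replicate 3 of that group and -0.42 without both HDM replicates 1 and 2, and neither passed (edgeR adjusted p = 0.979 and 0.23). Without all 3 it was -0.26 for MSC day 13, which passed (edgeR adjusted p = 0.0254), and -0.21 for MSC day 6, which did not (edgeR adjusted p = 0.0956). That fit called 2279 of 19796 genes for MSC day 13. Cldn3 shares 40 exon bases with the antisense gene Wbscr25, which had 174 reads in all libraries together, against 42798 for Cldn3. How the counting handled strand is not known here, and the effect of this overlap on Cldn3 was not tested.

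Cldn5, on the plus strand of chromosome 16 from 18776847 to 18778262, encodes claudin-5, the claudin of endothelial tight junctions. MSC day 13 lungs had 148, 167, 65.5, 170 and 182 CPM, MSC day 6 lungs 192, 198, 222, 164 and 195 CPM, and HDM lungs 123, 107, 197, 178 and 163 CPM. The groups overlapped, and the 3 lowest libraries were MSC day 13 replicate 3 and HDM replicates 2 and 1. The log2 fold change was -0.065 for MSC day 13 (SE 0.22, edgeR adjusted p = 0.89) and 0.34 for MSC day 6 (SE 0.22, edgeR adjusted p = 0.524). The MSC day 13 value turned to 0.14 (edgeR adjusted p = 0.592) with replicate 3 of that group left out, so no direction holds for Cldn5 there. Without both HDM replicates 1 and 2, Cldn5 was -0.28 for MSC day 13 and 0.12 for MSC day 6 (edgeR adjusted p = 0.475 and 0.937).

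Cldn7 and Cldn1 were expressed at lower levels. Cldn7 encodes claudin-7, found along the sides of airway epithelial cells; it ranged from 8.47 to 19.8 CPM in MSC day 13 lungs, from 15.4 to 19.7 CPM in MSC day 6 lungs and from 10.8 to 19.5 CPM in HDM lungs. Cldn1 encodes claudin-1, a claudin of airway and basal epithelium; it ranged from 22.9 to 35.4 CPM in MSC day 13 lungs, from 22 to 29.4 CPM in MSC day 6 lungs and from 21.4 to 32.3 CPM in HDM lungs. All 3 groups overlapped for both genes. Their log2 fold changes for MSC day 13 were -0.16 and 0.080 (edgeR adjusted p = 0.661 and 0.763), and for MSC day 6 they were 0.077 and -0.033 (edgeR adjusted p = 0.904 and 0.947). Without MSC day 13 replicate 3 the MSC day 13 values were -0.001 for Cldn7 and 0.17 for Cldn1 (edgeR adjusted p = 0.998 and 0.442).

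Ocln encodes occludin, and F11r encodes junctional adhesion molecule A, which is present on epithelium, endothelium, platelets and leukocytes. Ocln had 37.5, 38.5, 22.4, 40.4 and 40.8 CPM in MSC day 13 lungs, 39.8, 41.7, 47.9, 49.5 and 43.3 CPM in MSC day 6 lungs, and 32.4, 34.8, 43, 42.6 and 35.9 CPM in HDM lungs. F11r had 131, 124, 94.6, 137 and 132 CPM in MSC day 13 lungs, 136, 137, 159, 141 and 137 CPM in MSC day 6 lungs, and 138, 137, 164, 152 and 126 CPM in HDM lungs. In both genes MSC day 13 replicate 3 was the lowest of all 15 libraries and the groups overlapped. The log2 fold changes for MSC day 13 were -0.069 for Ocln and -0.21 for F11r (edgeR adjusted p = 0.808 and 0.211). For MSC day 6 they were 0.23 for Ocln and -0.017 for F11r (edgeR adjusted p = 0.479 and 0.965). Without replicate 3 the MSC day 13 values were 0.076 for Ocln and -0.11 for F11r (edgeR adjusted p = 0.652 and 0.385).

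Tjp1 encodes ZO-1, the scaffold that links claudins, occludin and junctional adhesion molecules to the actin cytoskeleton in epithelium and endothelium. The gene spans 65296165 to 65527781 on the minus strand of chromosome 7. MSC day 13 lungs had 517, 483, 380, 485 and 537 CPM, MSC day 6 lungs 505, 556, 528, 505 and 508 CPM, and HDM lungs 639, 746, 579, 569 and 493 CPM. HDM replicate 5 was the 1 HDM lung within the range of the MSC lungs, and the other 4 lay above all 10 of them. The log2 fold change was -0.33 (SE 0.11, edgeR adjusted p = 0.0883) for MSC day 13 and -0.22 (SE 0.11, edgeR adjusted p = 0.404) for MSC day 6. Leaving out MSC day 13 replicate 3 gave -0.24 (edgeR adjusted p = 0.131) and -0.21 (edgeR adjusted p = 0.203). Without both HDM replicates 1 and 2, the highest libraries for Tjp1, the values were -0.18 and -0.069 (edgeR adjusted p = 0.335 and 0.916). DESeq2 called Tjp1 in MSC day 13 lungs with all 15 libraries (adjusted p = 0.033), and limma voom did not (0.122). Over all genes DESeq2 called 2136 of 19562 there, against 937 with edgeR.

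Cdh1, on the plus strand of chromosome 8 from 106603351 to 106670246, encodes E-cadherin. MSC day 13 lungs had 338, 342, 204, 390 and 318 CPM, MSC day 6 lungs 366, 348, 308, 363 and 349 CPM, and HDM lungs 454, 468, 384, 410 and 416 CPM. All 5 MSC day 6 lungs lay below the lowest HDM lung, and MSC day 13 lungs overlapped HDM lungs only through replicate 4. Groups that do not overlap with MSC day 6 below were found for 3.45% of all genes tested. The log2 fold change was -0.42 (SE 0.13, edgeR adjusted p = 0.0723) for MSC day 13 and -0.30 (SE 0.13, edgeR adjusted p = 0.324) for MSC day 6. With MSC day 13 replicate 3 left out, Cdh1 fell by 0.28 in MSC day 13 lungs (edgeR adjusted p = 0.0467), and the MSC day 6 value was -0.29 (edgeR adjusted p = 0.0506). Without both HDM replicates 1 and 2 the MSC day 13 value was -0.33, and without MSC day 13 replicate 3 as well it was -0.22; neither passed (edgeR adjusted p = 0.208 and 0.0755). With all 15 libraries DESeq2 and limma voom called Cdh1 in MSC day 13 lungs (adjusted p = 0.0235 and 0.0271). They called 2136 and 2413 of 19562 genes there, against 937 with edgeR.

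**Figure D2:**
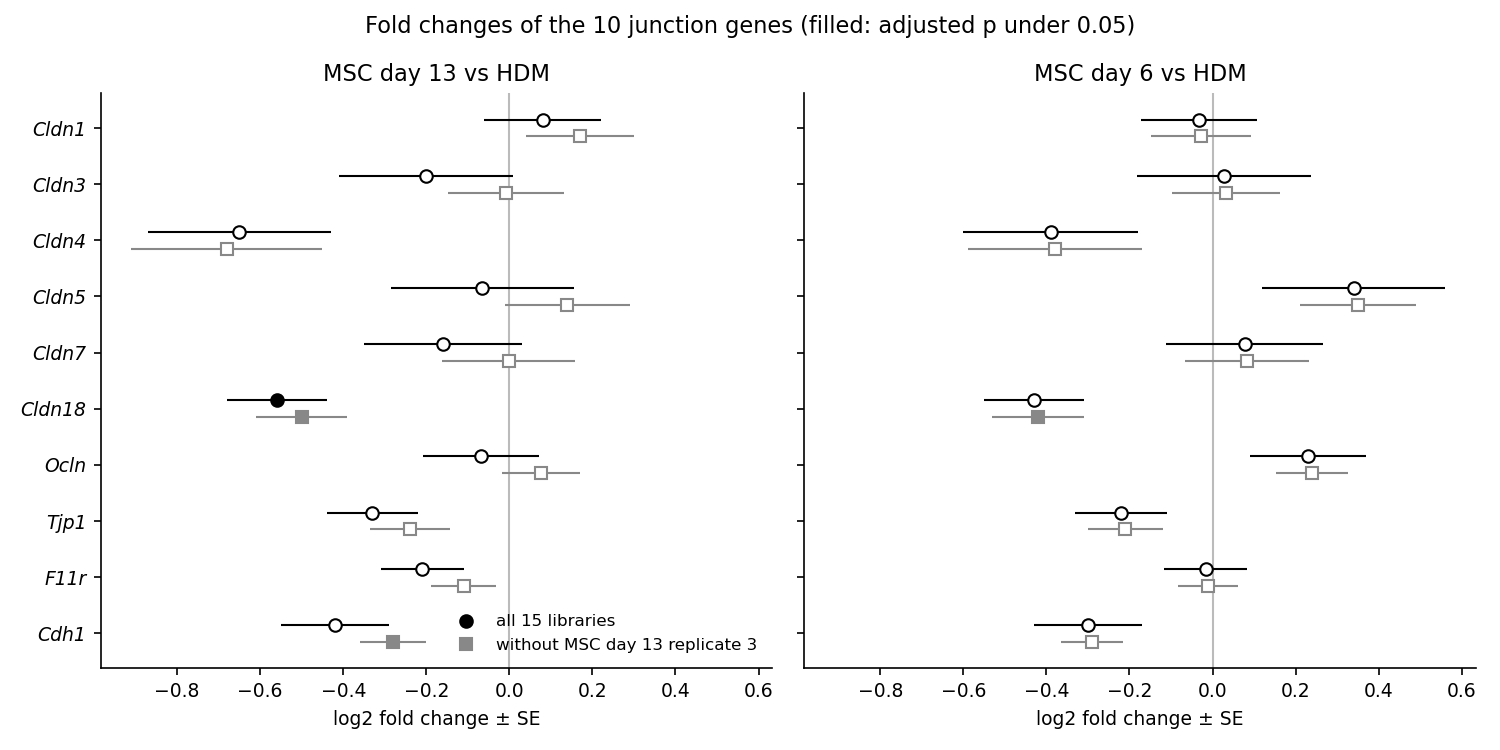
Log2 fold changes (x axis, ± SE) of the 10 junction genes for MSC day 13 and MSC day 6 against HDM, from all 15 libraries (circles) and without MSC day 13 replicate 3 (squares); filled symbols have an adjusted p under 0.05. Cldn18 is filled for MSC day 13 in both fits (-0.56 and -0.50), and Cdh1 (-0.28) and, for MSC day 6, Cldn18 (-0.42) are filled only without that library.

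As a group, 9 of the 10 genes had a log2 fold change below 0 for MSC day 13, with a median of -0.21, against a median of 0.027 over all genes tested. It was 7 of 10 without MSC day 13 replicate 3, with a median of -0.061 against 0.031. For MSC day 6 it was 6 of 10, with a median of -0.025 against 0.012. The lean of the 10 below 0 in MSC day 13 lungs was thus smaller without that library. In it every junction gene except Cldn4 was below the other 4 of its group, by 0.25 on the log2 scale for Cldn18 up to 1.35 for Cldn5, and its summed AT1, AT2, club, ciliated, goblet and endothelial markers were below the other 4 as well. Its basal and thymic epithelial markers were above them, at 58.3 and 282 CPM against at most 1.88 and 14.7 CPM.

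Between MSC day 13 and MSC day 6 lungs, log2 fold changes of the 10 ran from -0.41 (SE 0.22) for Cldn5 to 0.11 (SE 0.14) for Cldn1. No gene of the 19562 was called by edgeR, 1514 had an unadjusted p under 0.05, and DESeq2 called 2 genes and limma voom 1. Ocln had the smallest unadjusted edgeR p of the 10 (0.0453, log2 fold change -0.30, adjusted p 0.623). The 10 values ran, with MSC day 13 replicate 3 left out, from -0.30 for Cldn4 to 0.19 for Cldn1. These errors do not show that the 2 times of MSC delivery act alike.

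Levels between genes were compared per length, as RPKM (CPM per kilobase of summed exons). In HDM lungs the order was Cldn18 (189 ± 28.3), Cldn5 (108 ± 26.6), Cdh1 (93.3 ± 7.41), Tjp1 (77.5 ± 12), Cldn3 (72.1 ± 18.1), F11r (53.9 ± 5.58), Ocln (8.95 ± 1.13), Cldn7 (8.49 ± 1.82), Cldn1 (5.61 ± 1.05) and Cldn4 (2.55 ± 0.747), each in RPKM (SD, n = 5). Tjp1 and Cldn3 are not separated in this order, since Tjp1 was above Cldn3 in 5 of the 15 libraries. Cldn18 exceeded Cldn5 in 12 of 15, and the 3 exceptions were 1 MSC day 13 lung and 2 MSC day 6 lungs. F11r exceeded Ocln in all 15 libraries, and Cldn1 exceeded Cldn4 in all 15. Ocln exceeded Cldn7 in 12 of 15, and their SDs overlap.

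**Figure D3:**
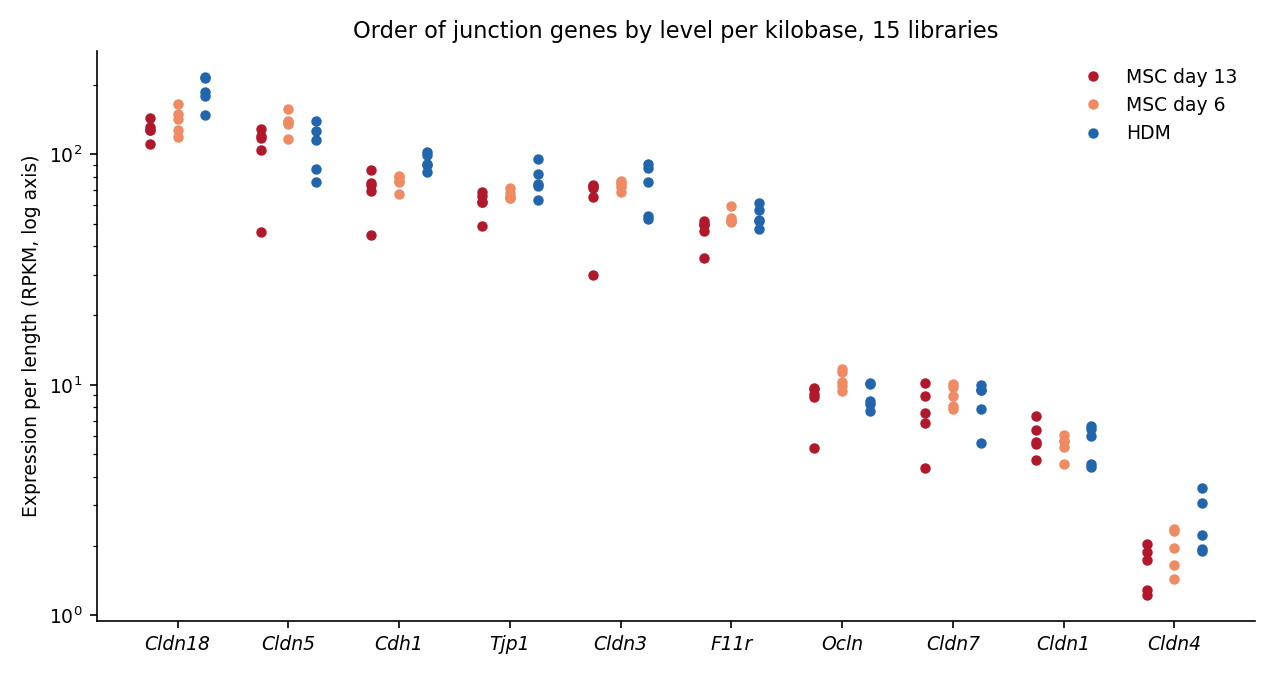
Level per exon length in RPKM (log axis) of the 10 junction genes, ordered by their mean in HDM lungs, with 1 point per library for MSC day 13, MSC day 6 and HDM. A step separates the 6 highest genes, from 30 to 217 RPKM, from Ocln, Cldn7, Cldn1 and Cldn4, which range from 1.23 to 11.7 RPKM.

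The 10 genes did not vary together. Over the 14 libraries without MSC day 13 replicate 3, the log2 levels of Cldn18 correlated with those of Tjp1 (Pearson r = 0.81) and Cdh1 (r = 0.73). Cldn3 correlated with Cldn5 (r = 0.78), Cldn7 (r = 0.74) and Ocln (r = 0.65). Between both sets the sign was negative, as for Cldn5 with Cdh1 (r = -0.73) and Cldn3 with Tjp1 (r = -0.58). These are descriptions over libraries that share their group and depth, and they carry no p.

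HDM replicates 1 and 2 showed the same division. Both are among the 14 libraries correlated above, so this is not a separate observation, and the correlations were not computed without them. These replicates were above the other 3 HDM libraries for Cldn18, Tjp1 and Cdh1, whose summed exon lengths are 4456, 7811 and 4574 bases. They were below them for Cldn3, Cldn5, Cldn7 and Ocln, with 1259, 1416, 1948 and 4222 bases. They overlapped them for Cldn1, Cldn4 and F11r, with 4841, 1816 and 2663 bases. Cldn1 is thus longer than Cldn18 and Cdh1, and Cldn4 is shorter than Cldn7. A loess correction for exon length and GC content was chosen after seeing the data. With it edgeR called 1703 genes for MSC day 13, against 937 without it. Cldn18 then had a log2 fold change of -0.55 for MSC day 13 (edgeR adjusted p = 0.0123), against -0.56 uncorrected. Cldn3 for MSC day 6 was then -0.11 (edgeR adjusted p = 0.602), against 0.028 uncorrected. The part that transcript length has in the group differences was not tested.

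**Figure D4:**
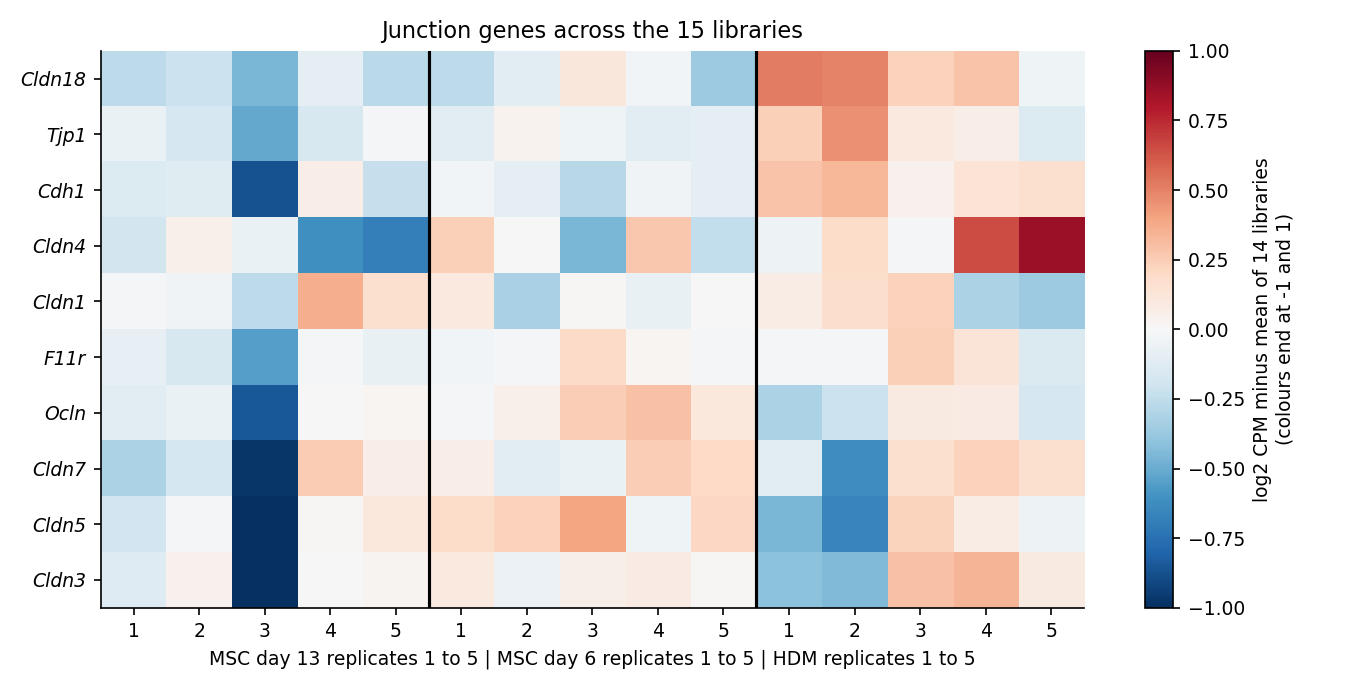
Log2 CPM of each junction gene in each library, minus its mean over the 14 libraries other than MSC day 13 replicate 3 (red above, blue below, colours ending at -1 and 1). The third MSC day 13 column is blue throughout, darkest for Cldn5 and Cldn3 and palest for Cldn4, and the columns of HDM replicates 1 and 2 are red for Cldn18, Tjp1 and Cdh1 and blue for Cldn3 and Cldn5.

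Whole lung RNA mixes many cell types, and fewer cells of a type cannot be told apart from less RNA per cell. The 7 AT1 markers other than Cldn18 summed to 1442 to 3061 CPM in MSC day 13 lungs, 2806 to 3603 CPM in MSC day 6 lungs and 2076 to 3574 CPM in HDM lungs. The 9 AT2 markers summed to 9711 to 19658 CPM, 17612 to 22592 CPM and 15785 to 22554 CPM in the same order of groups. Both sums overlapped between groups, and no AT1, AT2, pan-epithelial or endothelial marker was at 0 throughout a group. The 4 basal cell markers summed to at most 2.55 CPM outside MSC day 13 replicate 3, where they reached 58.3 CPM.

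Some single markers and other cell types, named here after their values were seen, did not overlap between groups. Of all genes tested, 3.73% lay below every HDM lung in all MSC day 13 lungs, and 3.45% did in all MSC day 6 lungs. Of the 9 AT2 markers, 2 were below every HDM lung in all MSC day 13 lungs: Sftpb, surfactant protein B, at 656 to 1477 CPM against 1631 to 1723 CPM in HDM lungs, and Lpcat1, an enzyme of surfactant lipid synthesis, at 213 to 346 CPM against 391 to 483 CPM. Lpcat1 fell by 0.55 in MSC day 13 lungs (edgeR adjusted p = 0.0176), and Sftpb, at -0.44, did not pass (adjusted p = 0.121). In MSC day 6 lungs 1 of the 9, Sftpb, was below every HDM lung, at 1220 to 1610 CPM. Of the 9 endothelial markers, 2, Cdh5 and Emcn, were below every HDM lung in MSC day 13 lungs, and 0 were in MSC day 6 lungs. The sum of the 9 overlapped HDM lungs in both MSC groups. Emcn, an endothelial surface sialomucin, was 37.1 to 54.7 CPM in MSC day 13 lungs and 63.1 to 87.3 CPM in HDM lungs. It fell by 0.57 (edgeR adjusted p = 0.0176) and was the 1 endothelial marker called. The 5 B cell markers summed to 96.8 to 193 CPM in MSC day 13 lungs and 152 to 197 CPM in MSC day 6 lungs, below the 239 to 310 CPM of HDM lungs. Singly, 4 of these 5 were below every HDM lung in MSC day 13 lungs, and 4 were in MSC day 6 lungs. Cd79a, Cd79b, Cr2 and Ms4a1 were called lower in MSC day 13 lungs, beside 2.89% of all genes tested. In MSC day 6 lungs 0 of the 5 were called. The 5 leukocyte markers summed to 810 to 1092 CPM in MSC day 13 lungs without replicate 3, where they were 1543 CPM, and to 972 to 1127 CPM in MSC day 6 lungs, against 1157 to 1331 CPM in HDM lungs. Singly, 2 of these 5, Cd52 and Laptm5, were below every HDM lung in MSC day 13 lungs and 0 in MSC day 6 lungs. Cd52 and Laptm5 were also called lower in MSC day 13 lungs. The 5 smooth muscle markers summed higher, to 1122 to 1446 CPM in MSC day 13 lungs without replicate 3 (622 CPM). In MSC day 6 lungs they summed to 1032 to 1273 CPM, against 816 to 1029 CPM in HDM lungs. Singly, 4 of the 5 were above every HDM lung in MSC day 13 lungs without replicate 3. In MSC day 6 lungs only 1, Tagln, was. The share of all genes that lay above every HDM lung is not given here, so these smooth muscle counts are description only. With all 15 libraries 0 of the 5 were called in either MSC group. The part of these markers and cell types in the differences of the junction genes was not tested.

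Levels were also set against markers of the same library, as the log2 CPM of a junction gene minus the mean log2 CPM of the markers, in 12 comparisons chosen after seeing the data. Cdh1 relative to 5 other pan-epithelial genes was 1.74 ± 0.18 in MSC day 13 lungs and 1.69 ± 0.14 in MSC day 6 lungs, against 2.28 ± 0.36 in HDM lungs (SD, n = 5 each). Both MSC groups lay below every HDM lung (exact two-sided permutation p = 0.00794, the smallest possible, 0.0238 after Benjamini-Hochberg adjustment over 12). Relative to AT1 markers Cldn18 was 1.34 ± 0.31 in MSC day 13 lungs, 1.16 ± 0.12 in MSC day 6 lungs and 1.80 ± 0.49 in HDM lungs (exact permutation, adjusted p = 0.218 and 0.0238 against HDM). With replicate 3 left out the MSC day 13 value was 1.20 ± 0.044 (n = 4; exact permutation, adjusted p = 0.0381).

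Relative to AT2 markers Cldn18 was -0.81 ± 0.28 in MSC day 13 lungs, -1.03 ± 0.14 in MSC day 6 lungs and -0.63 ± 0.41 in HDM lungs, a smaller difference that did not pass (exact permutation, adjusted p = 0.468 and 0.133). Cldn5 relative to 9 endothelial markers was -0.84 ± 0.18 in MSC day 13 lungs, -0.62 ± 0.042 in MSC day 6 lungs and -0.91 ± 0.23 in HDM lungs. Only the MSC day 6 value passed, above every HDM lung (exact permutation, adjusted p = 0.683 and 0.0238). Tjp1 relative to endothelial markers and Cldn3 relative to AT2 markers did not pass in either MSC group. Without HDM replicates 1 and 2, 5 lungs against 3 cannot give a p below 0.0357, or 0.107 after adjustment here. Differences from HDM were then -0.28 and -0.33 for Cdh1 and -0.11 and -0.29 for Cldn18 on AT1 markers (MSC day 13 and MSC day 6). For Cldn18 on AT2 markers they were 0.090 and -0.13, against -0.19 and -0.40 with all libraries, and for Cldn5 they were -0.098 and 0.12, against 0.066 and 0.29.

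Beyond the 10, 8 lists of junction genes were read by the same test. Of 8 other claudins tested, 0 were called in either MSC group, and the median log2 fold change was -0.24 for MSC day 13 and -0.006 for MSC day 6. The smallest p-values for MSC day 13 belonged to Cldn8 (log2 fold change -0.49, edgeR adjusted p = 0.194) and Cldn2 (-0.38, adjusted p = 0.379), a pore-forming claudin. Both were weakly expressed, with group means of 1.24 to 1.76 CPM. Of 13 other tight-junction membrane proteins, 0 were called, with medians of -0.15 and 0.016. Without MSC day 13 replicate 3 the MSC day 13 median was -0.042, with 7 of 13 genes below 0 rather than 11. Jam2, an adhesion molecule of endothelium, averaged 58.9 ± 8.09 CPM in MSC day 13 lungs and 72.3 ± 5.29 CPM in HDM lungs without overlap (n = 5 each), yet did not pass (log2 fold change -0.29, edgeR adjusted p = 0.091). Popdc3 had -0.39 (edgeR adjusted p = 0.198).

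Of 23 scaffold and polarity genes, 0 were called in either MSC group, with medians of -0.042 (0.013 without MSC day 13 replicate 3) and 0.037. The genes with the smallest p, Amotl1 and Ybx3, a ZO-1 partner, had log2 fold changes of -0.29 and -0.24 for MSC day 13 (edgeR adjusted p = 0.105 and 0.132). Mpdz, the multi-PDZ scaffold that binds claudins, was higher in MSC day 13 lungs by 0.30 on the log2 scale when replicate 3 was left out (edgeR adjusted p = 0.0227). Pard3b, a polarity protein, was then higher by 0.23 (edgeR adjusted p = 0.0489). Mpdz averaged 80.9 ± 7.23 CPM in those MSC day 13 lungs (n = 4) and 66.7 ± 3.35 CPM in HDM lungs (n = 5). With all 15 libraries neither passed (0.18 and 0.12, edgeR adjusted p = 0.321 and 0.458).

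Of 18 adherens junction genes, 1 was lower in MSC day 13 lungs, beside 2.89% of all genes tested. Nectin1, an immunoglobulin-type adhesion molecule that starts adherens junctions, averaged 35.7 ± 2.96 CPM in MSC day 13 lungs, 35.9 ± 3.64 CPM in MSC day 6 lungs and 49.4 ± 5.99 CPM in HDM lungs (SD, n = 5 each). Both MSC groups lay below every HDM lung. Nectin1 fell by 0.47 in MSC day 13 lungs (edgeR adjusted p = 0.0195), and the MSC day 6 value was -0.46 (edgeR adjusted p = 0.0769). Leaving out MSC day 13 replicate 3, it passed in both, with -0.40 and -0.45 (edgeR adjusted p = 0.0242 and 0.0274). It did not pass for MSC day 13 without replicate 5 of that group, where it was -0.47.

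Cdh5, which encodes VE-cadherin, averaged 540 ± 137 CPM in MSC day 13 lungs, 663 ± 73.4 CPM in MSC day 6 lungs and 757 ± 43.3 CPM in HDM lungs (SD, n = 5 each). All MSC day 13 lungs lay below the lowest HDM lung, and the log2 fold change of -0.49 did not pass (edgeR adjusted p = 0.081). With replicate 3 left out, at 298 CPM the lowest, Cdh5 fell by 0.32 (edgeR adjusted p = 0.0392). Cdh5 is also in the list of 17 endothelial junction genes, of which 0 were called in either MSC group with all libraries. Of those 17, 16 were below 0 for MSC day 13 and 7 for MSC day 6. Without replicate 3 the MSC day 13 count was 8 of 17 and the median 0.047; endothelial markers summed to 1952 CPM in that library, the lowest of all 15.

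Of 11 gap junction genes tested, 1 was lower in MSC day 13 lungs (2.89% of all genes were), with a median over the list of -0.39 for MSC day 13 (-0.21 without replicate 3) and -0.081 for MSC day 6. Gja1, which encodes connexin 43 and couples alveolar and airway cells, averaged 96.9 ± 15.3 CPM in MSC day 13 lungs, 116 ± 11 CPM in MSC day 6 lungs and 156 ± 15.6 CPM in HDM lungs (SD, n = 5 each). Neither MSC group overlapped HDM lungs, whose lowest value was 140 CPM. Gja1 fell by 0.69 in MSC day 13 lungs (edgeR adjusted p = 0.00904), and the MSC day 6 value was -0.42 (edgeR adjusted p = 0.114). Both passed without MSC day 13 replicate 3, with -0.58 and -0.42 (edgeR adjusted p = 0.00437 and 0.0272). The MSC day 13 call held in each of the 15 fits that left out 1 library.

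Of 9 desmosome genes, 0 were called; the median was 0.22 for MSC day 13, the highest of the 8 lists, and 0.032 for MSC day 6. Without MSC day 13 replicate 3 the MSC day 13 median was 0.11, and 4 of the 9 genes were below 0 rather than 2. Perp, a desmosomal membrane protein, had a log2 fold change of 0.47 and Pkp4, a plaque protein, of -0.24 for MSC day 13 (edgeR adjusted p = 0.082 and 0.0803). Of 18 transcription factors of junction genes, 1 was lower in MSC day 13 lungs, again beside 2.89% of all genes; counts of 1 in lists of this size are near that share. Foxo1, a factor that represses Cldn5 in endothelium, averaged 69.4 ± 7.14 CPM in MSC day 13 lungs, 64.4 ± 7.67 CPM in MSC day 6 lungs and 95 ± 17.9 CPM in HDM lungs (SD, n = 5 each). It fell by 0.45 in MSC day 13 lungs (edgeR adjusted p = 0.0438), a call lost in 10 of the 15 fits that left out 1 library, and was -0.24 without both HDM replicates 1 and 2. The MSC day 6 value was -0.56 (edgeR adjusted p = 0.0769), and -0.55 without MSC day 13 replicate 3 (edgeR adjusted p = 0.0289).

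**Figure D5:**
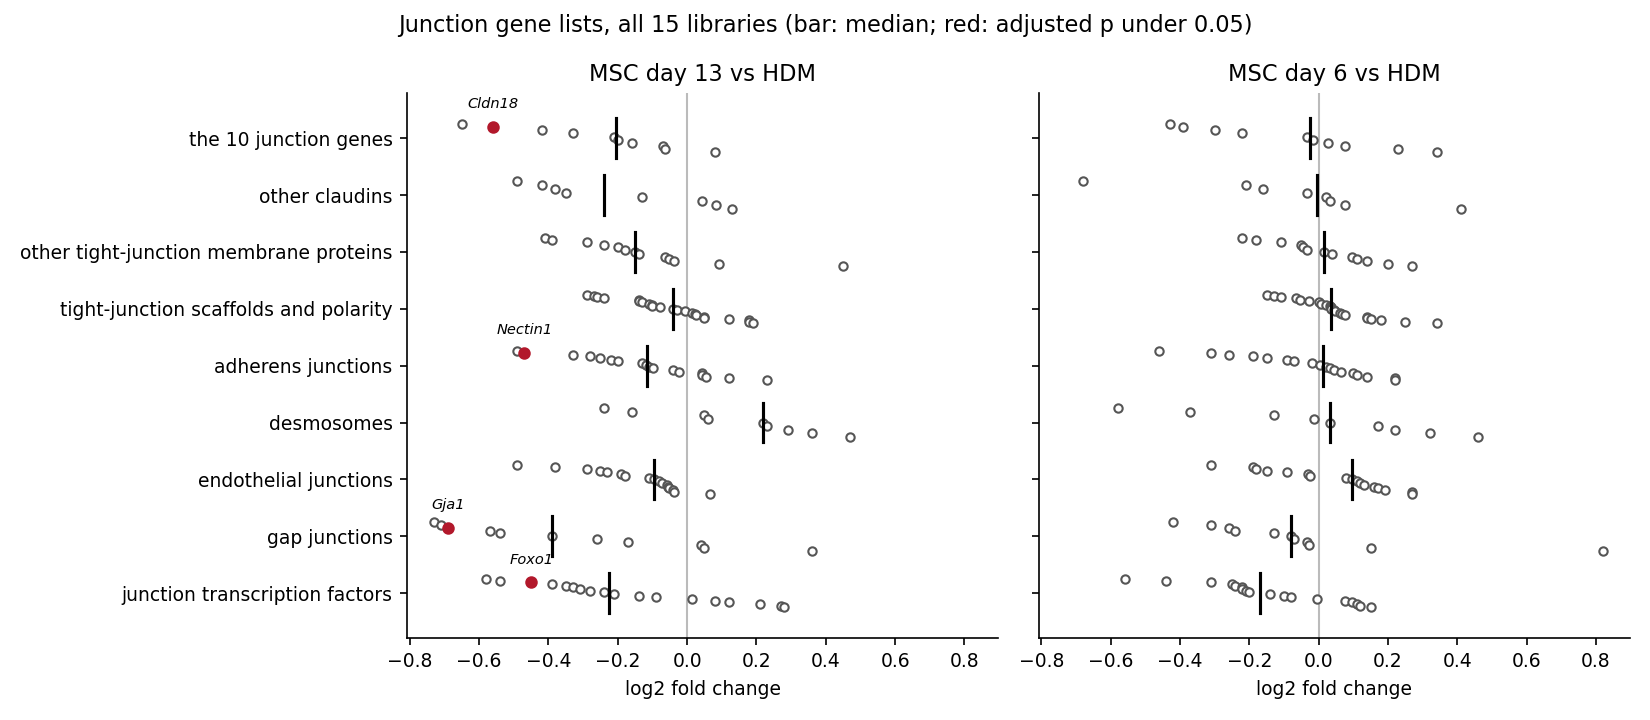
Log2 fold changes (x axis) of the 10 junction genes and of 8 lists of other junction genes for MSC day 13 and MSC day 6 against HDM with all 15 libraries; each circle is a gene, bars are medians and red circles have an adjusted p under 0.05. The 4 red circles, Cldn18 (-0.56), Nectin1 (-0.47), Gja1 (-0.69) and Foxo1 (-0.45), are all on the MSC day 13 side and below 0.

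Genes with the pattern most like each junction gene were read from 14074 genes as the Pearson r of log2 CPM over the 14 libraries without MSC day 13 replicate 3; the highest of so many correlations is high by choice, and no p is given. For Cldn18 they were Foxa2 (r = 0.96), Arl5a and Ube2g1 (both r = 0.95). For Cdh1 they were Adam10 (r = 0.97), Jak1 and Rps6ka3 (both r = 0.96). Foxa2 encodes a lung epithelial transcription factor, and Adam10 a protease known to cut E-cadherin. For Tjp1 they were mt-Nd2 (r = 0.95), Fnbp1l (r = 0.94) and Apc (r = 0.93), the first of them a mitochondrial gene. For Cldn3 they included Slc39a4 (r = 0.98) and Agpat2 (r = 0.96), and for Cldn5 they were Dok4 (r = 0.96), Impdh1 and Plscr1 (both r = 0.95). The remaining genes had lower maxima: Cldn4 with Mmp14, Sh3pxd2b and Dtx4 (each r = 0.92), Ocln with Kbtbd2 (r = 0.91), Selenok and Rpl22 (both r = 0.90), and F11r with Klrb1b (r = 0.91), Hs2st1 (r = 0.90) and Scnn1g (r = 0.89). Cldn7 was most like Tmem256 (r = 0.89), Scarna6 and Dmkn (both r = 0.88), and Cldn1 most like Ttc8 (r = 0.88), Fez1 (r = 0.87) and Lpar1 (r = 0.84).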

How the data were processed

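Raw read counts per Ensembl gene were deposited by the authors as 1 table with a column per mouse lung; reads were aligned with STAR 2.5.3a to GRCm38, per the submitters' processing notes. Per the labels' protocols, RNA was kept in RNAlater and made into stranded total RNA libraries. Not given in the sources used here are the counting method, its handling of strand and the annotation counted.

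From the counts, edgeR 4.0.16 in R 4.3.3 filtered genes (filterByExpr), scaled libraries (TMM) and tested 3 contrasts in a single quasi-likelihood fit of all 15 libraries with robust shrinkage; p-values are two-sided and adjusted over all 19562 genes tested. The scripts were tested on simulated data. Names, coordinates and exon lengths came from a GENCODE annotation of GRCm38, which matched 55240 of 55421 IDs. Promoter windows came from RefSeq. Permutation tests used scipy 1.17.1, with 0.5 CPM added before logs. Each library is 1 mouse per the design text; replicates are numbered in accession order.

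The 10 genes and all lists were chosen with earlier results of these data known. In each list, genes called were named (at most 4 per comparison), or the 2 with the smallest p for MSC day 13 where none was called. Alternatives were other scalings and filters, DESeq2 1.42.0, limma 3.58.1 voom, fits without robust shrinkage or of the compared groups alone, and leaving libraries out; the loess correction was added after seeing the data. Cldn25, Jam4 and Pals1 were not matched by symbol. One gene with a pattern like that of Cldn3 is not reported here. Differences in depth limit precision most for Cldn4, with 54 to 209 reads per library.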

Additional observations from a re-analysis of the deposited data

Results flagged for a closer look

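In groups of 5, a library whose gap to its nearest neighbour exceeded 0.71 of the whole range was picked out (Dixon's criterion); 72 groups were examined, and chance picks about 1 in 20. In 4 of the 8 cases the library was MSC day 13 replicate 3. There Cldn3 was 37.7 CPM against 82.3 to 92.6 CPM in the other 4 libraries, and Ocln was 22.4 CPM against 37.5 to 40.8 CPM. In the same library Amotl1 was 118 CPM against 158 to 169 CPM, and Cdh5 was 298 CPM against 581 to 628 CPM. Its AT1, AT2 and endothelial marker sums were also below those of its group, its basal and thymic epithelial sums were above them (58.3 and 282 CPM), and its thymocyte marker sum was 4535 CPM. MSC day 13 replicate 4 was high for Popdc3, at 5.32 CPM against 3.85 to 4.02 CPM, and for Ybx3, at 81.4 CPM against 67.6 to 70.6 CPM. MSC day 6 replicate 3 was high for F11r, at 159 CPM against 136 to 141 CPM. HDM replicate 5 was low for Cldn8, at 1.18 CPM against 1.8 to 1.96 CPM.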

How the results depend on the processing

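Genes called for MSC day 13 against HDM (937) numbered 208 with no filter on low counts, 2136 with DESeq2, 2413 with limma voom, 0 in a fit of those libraries alone, 183 without both HDM replicates 1 and 2, and 2279 without MSC day 13 replicate 3 as well. After the loess correction they were 1703, or 2386 without MSC day 13 replicate 3. Junction genes called there (1) were 4 with DESeq2, 3 with limma voom, 0 in the fit of those libraries alone and without both HDM replicates, and 3 without MSC day 13 replicate 3 in addition or after the loess correction without it. For MSC day 6 against HDM, genes called (19) numbered 0 with upper-quartile scaling, 2 with no filter, 663 with DESeq2, 494 with limma voom, 36 in a fit of those libraries alone, 2 without both HDM replicates, 492 without MSC day 13 replicate 3 as well, and 221 or 1129 after the loess correction with and without that library. Junction genes called there (0) were 1 with DESeq2 (Cldn18), 1 with limma voom (Cldn18) and 2 after the loess correction without MSC day 13 replicate 3. Between both MSC groups DESeq2 called 2 genes and limma voom 1. Leaving out each library in turn gave 160 to 1294 genes and 0 to 2 junction genes for MSC day 13, 0 to 433 genes and 0 to 1 junction genes for MSC day 6, and 0 for both counts between the MSC groups.

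Signs turned for 8 values of the 10 genes, none of them called with all 15 libraries. For MSC day 13 against HDM, Cldn1 was -0.002 after the loess correction; without MSC day 13 replicate 3 the corrected Cldn5 was 0.026 and Ocln 0.060. For MSC day 6 against HDM, Cldn1 was 0.10 with limma voom, and 0.075 without both HDM replicates 1 and 2 (0.070 without MSC day 13 replicate 3 as well). Under the same 3 settings Cldn3 was -0.11, -0.20 and -0.21, and Cldn7 was -0.018, -0.11 and -0.11. Cldn3 was also -0.11 after the loess correction and -0.10 with it and without MSC day 13 replicate 3, when Cdh1 between the MSC groups was 0.022. Without both HDM replicates 1 and 2 and MSC day 13 replicate 3, Cldn1 was 0.25 for MSC day 13 and F11r -0.058 for MSC day 6. Both kept there the sign they had with all 15 libraries (0.080 and -0.017). Leaving out 1 library moved Cldn1 from -0.008 to 0.17, Cldn5 from -0.15 to 0.14 and Ocln from -0.12 to 0.076 for MSC day 13. It moved Cldn1 from -0.10 to 0.037, Cldn3 from -0.064 to 0.12, Cldn7 from -0.040 to 0.14 and F11r from -0.055 to 0.037 for MSC day 6, and Cdh1 from -0.21 to 0.014 between the MSC groups. The cause of these changes was not tested. No paired analysis was possible because the replicate numbers follow accession order and pair no mice.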
